A study of Caenorhabditis elegans with 44 samples.

Results

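The genes described here encode parts of a cullin-SKR ubiquitin ligase of C. elegans. They were chosen by name as the rows of the cullin cul-6, the Skp1-related genes skr-3, skr-4, skr-5 and skr-6, and the RING-domain gene rcs-1 (C28G1.5), and all 6 were found among the 22013 and 22014 gene entries of the deposited mRNA tables and among the 46926 and 46927 entries of the deposited small RNA (sRNA) tables. The study asked how loss of pals-22 changes mRNAs and sRNAs in first-stage (L1) larvae, and whether the RNA-dependent RNA polymerase RRF-3 or the Argonaute protein VSRA-1 is involved. In the N2 background, the laboratory wild-type strain, mRNA was sequenced from animals carrying both rrf-3(pk1426) and pals-22(pig26) (double mutants, n = 2), pals-22(pig26) mutants (n = 3), rrf-3(pk1426) mutants (n = 3) and wild type (n = 2), and sRNA from pals-22(pig26) mutants and wild type (n = 3 each). In the otIs356 background, mRNA and sRNA were each sequenced from animals carrying both vsra-1(tm1637) and pals-22(pig26) (double mutants, n = 3), pals-22(pig26) mutants (n = 3), vsra-1(tm1637) mutants (n = 4) and wild type (n = 4). All otIs356 animals, wild type included, carry the integrated repetitive transgene otIs356, which drives nuclear TagRFP from a rab-3 promoter in neurons, and pig26 is an in-frame deletion made by genome editing. Each library was made from a population of whole larvae hatched without food, and no label or method says that libraries of a group came from separate cultures, so that p-values measure the spread between these libraries, which may be technical.

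Cullin-RING ligases attach ubiquitin to proteins. A cullin forms the scaffold, a RING protein bound at one end recruits the ubiquitin-charged enzyme, and at the other end a Skp1-related (SKR) linker holds an F-box protein that selects the substrate. In C. elegans CUL-6 assembles with SKR-3, SKR-4 and SKR-5, the RING protein RCS-1 and the F-box proteins FBXA-75 and FBXA-158. Their genes belong to the intracellular pathogen response (IPR), a transcriptional program that is switched on by microsporidia and the Orsay virus, is repressed by pals-22 and is linked to better survival of heat stress.

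In WBcel235, the build called ce11 at UCSC, cul-6 (WBGene00000841) is on the minus strand of chromosome IV from 12586485 to 12590451 and rcs-1 (WBGene00016190) on the minus strand of chromosome X from 8826604 to 8828540. The linker genes are all on chromosome V and lie far apart. On the plus strand, skr-3 (WBGene00004809) spans 16121084 to 16122649, skr-5 (WBGene00004811) 17347902 to 17348723, and skr-4 (WBGene00004810) 19924224 to 19925033. On the minus strand, skr-6 (WBGene00004812) spans 18269616 to 18269985. The coding sequences of skr-3 and skr-4 were identical at 94.2% of aligned bases and those of skr-5 and skr-6 at 74.3%, whereas the other pairs of the 4 linkers had 62.7–66.1%. The stretch below is the gap-free window of 90 aligned coding bases with the most positions, 53, the same in all 4 linkers. It is read 5′ to 3′ on each gene's own strand, with the 37 positions at which not all of them are the same in capitals. Not every capital separates skr-3 from skr-4. It covers coding bases 263–352 of skr-3, 242–331 of skr-4, 239–328 of skr-5 and 98–187 of skr-6.
skr-3: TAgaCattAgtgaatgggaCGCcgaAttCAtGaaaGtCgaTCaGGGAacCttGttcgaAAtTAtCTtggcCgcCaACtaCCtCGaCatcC
skr-4: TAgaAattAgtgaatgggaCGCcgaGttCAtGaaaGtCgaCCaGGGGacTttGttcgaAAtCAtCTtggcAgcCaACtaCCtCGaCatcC
skr-5: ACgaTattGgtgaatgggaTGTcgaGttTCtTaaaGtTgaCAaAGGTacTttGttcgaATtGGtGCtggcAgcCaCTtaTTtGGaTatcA
skr-6: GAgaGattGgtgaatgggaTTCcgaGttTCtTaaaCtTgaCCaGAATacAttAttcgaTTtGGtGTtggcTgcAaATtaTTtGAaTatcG

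Reads of skr-3 and skr-4 can be exchanged where the genes are identical. Their longest common coding run holds 62 bases, from coding base 184 of skr-3 and from coding base 151 of skr-4.
skr-3 and skr-4: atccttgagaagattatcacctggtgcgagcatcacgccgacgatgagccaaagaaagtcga
Of the 31-base words in the transcripts, 12.4% of those of skr-3 and 14.4% of those of skr-4 were shared with each other, 4.92% of those of skr-5 were shared with lsy-27, which overlaps skr-5 on the opposite strand, and none of those of cul-6, skr-6 or rcs-1 occurred in another gene. These shares do not bound the error of the values of skr-3, skr-4 and skr-5. In N2 wild type skr-4 made up 2.02–2.28% of the sum of skr-3 and skr-4. A small share of skr-3 reads assigned to skr-4 could therefore change its level and ratio far more.

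The library totals, given as the sum of estimated counts, were 36498609–61806727 in N2 mRNA and 5479218–33903511 in otIs356 mRNA, and the sRNA libraries held 11483077–43362769 counts in N2 and 7950015–21594026 in otIs356. Within a group, libraries of N2 mRNA correlated at r of at least 0.9851 on the log2 scale of CPM (counts relative to the scaled library total). In otIs356 mRNA, vsra-1 library 3 reached only 0.9023–0.9411 with its group and wild-type library 4 only 0.9259–0.9518. There vsra-1 library 4 reached 0.9403–0.9444 and the 3 double mutant libraries 0.9509–0.9534. The rrf-3 transcript fell to 0.334-fold in rrf-3 mutants against wild type (edgeR's quasi-likelihood test, adjusted p = 5.27e-05). Counts of pals-22 and vsra-1 did not check the labels, since pals-22 reads were higher in N2 pals-22 mutants (log2 fold change 0.88) and vsra-1 reads in vsra-1 mutants were close to otIs356 wild type (−0.24, adjusted p = 0.581). Summed markers of 8 cell or tissue types, 5 or 6 genes a list, also moved. In N2, 5 of the 8 sums did not overlap between pals-22 mutants and wild type, 4 higher and 1 lower. Of all single genes tested there, 28.5% lay higher without overlap. Sperm genes summed to 58.8–202 CPM in pals-22 mutants against 5.58–16.04 in wild type, hypodermis genes to 391–833 against 220–385, pharynx genes to 101–134 against 74.0–84.6, germline genes to 15.5–22.7 against 6.04–8.79, and neuron genes were lower, at 1032–1054 against 1272–1344. In otIs356, 3 sums did not overlap, and all were lower in pals-22 mutants. They were body wall muscle genes (1645–2048 CPM in pals-22 mutants against 3604–4920 in wild type), neuron genes (964–1013 against 1155–1570) and yolk genes (3.5004–6.78 against 11.7–22.3). No marker was at 0 in every N2 library of a group, whereas msp-10 and msp-3 of the sperm list were at 0 in every otIs356 wild-type library. The share of all genes that lay lower without overlap is not given here for pals-22 mutants in either background. Counts of sums are therefore no result about the marker lists. The part of these marker shifts in the results was not tested, and with whole larvae fewer cells of a type and less RNA per cell cannot be told apart.

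All 6 ligase genes were higher in pals-22 mutants than in wild type in N2. The gene entries tested numbered 18986, and 23.3% of them were called higher at an adjusted p under 0.1 (27.8% lower), or 27.9% higher and 14.2% lower when libraries were scaled by their totals alone. No member overlapped between the groups, and 28.5% of all genes tested lay higher without overlap. The median log2 fold change of the 6 genes was 3.81, against −0.02 over all genes tested. Values are given in CPM after scaling within the table, and levels are not compared between genes because the authors scaled the mRNA counts per gene.

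The scaffold cul-6 had 41.5, 40.6 and 46.0 CPM in the 3 pals-22 libraries, against 4.94 and 5.399 CPM in the 2 wild-type libraries. The groups were far apart and cul-6 was 8.25-fold higher (log2 fold change 3.04 ± 0.17 SE, adjusted p = 3.22e-06). The RING gene rcs-1 had 253, 263 and 263 CPM in pals-22 mutants and 39.0 and 40.7 CPM in wild type. It was 6.52-fold higher (2.71 ± 0.07, adjusted p = 2e-08), and its libraries agreed closely within each group.

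Among the linkers, skr-4 showed the largest ratio that a nonzero wild-type level allows. It had 336, 337 and 325 CPM in pals-22 mutants and 4.28 and 3.77 CPM in wild type, an 82.6-fold difference (log2 6.37 ± 0.15, adjusted p = 1.43e-08). Its near copy skr-3 already had reads in wild type, at 183 CPM in both libraries, and had 736, 772 and 762 CPM in pals-22 mutants, 4.13-fold higher (log2 2.04 ± 0.08, adjusted p = 2.06e-07). The ratios of skr-4 and skr-3 depend on how reads common to both genes were assigned. The linker skr-5 had 163, 169 and 170 CPM in pals-22 mutants and 6.94 and 7.18 CPM in wild type, 23.7-fold higher (log2 4.57 ± 0.18, adjusted p = 3.18e-07). No count of skr-6, a Skp1-related gene close to skr-5, was counted in either wild-type library. It had 21.98, 17.9 and 20.4 CPM in pals-22 mutants, at least 261-fold higher than the 3 counts that a count of 0 allows in the shallower wild-type library (adjusted p = 0.000512). The study compared its set of canonical IPR genes between these N2 samples and showed skr-4 and skr-5 as examples. The rise of skr-4 and skr-5, and of any other member in that set, is therefore not independent evidence of direction.

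**Figure D1:**
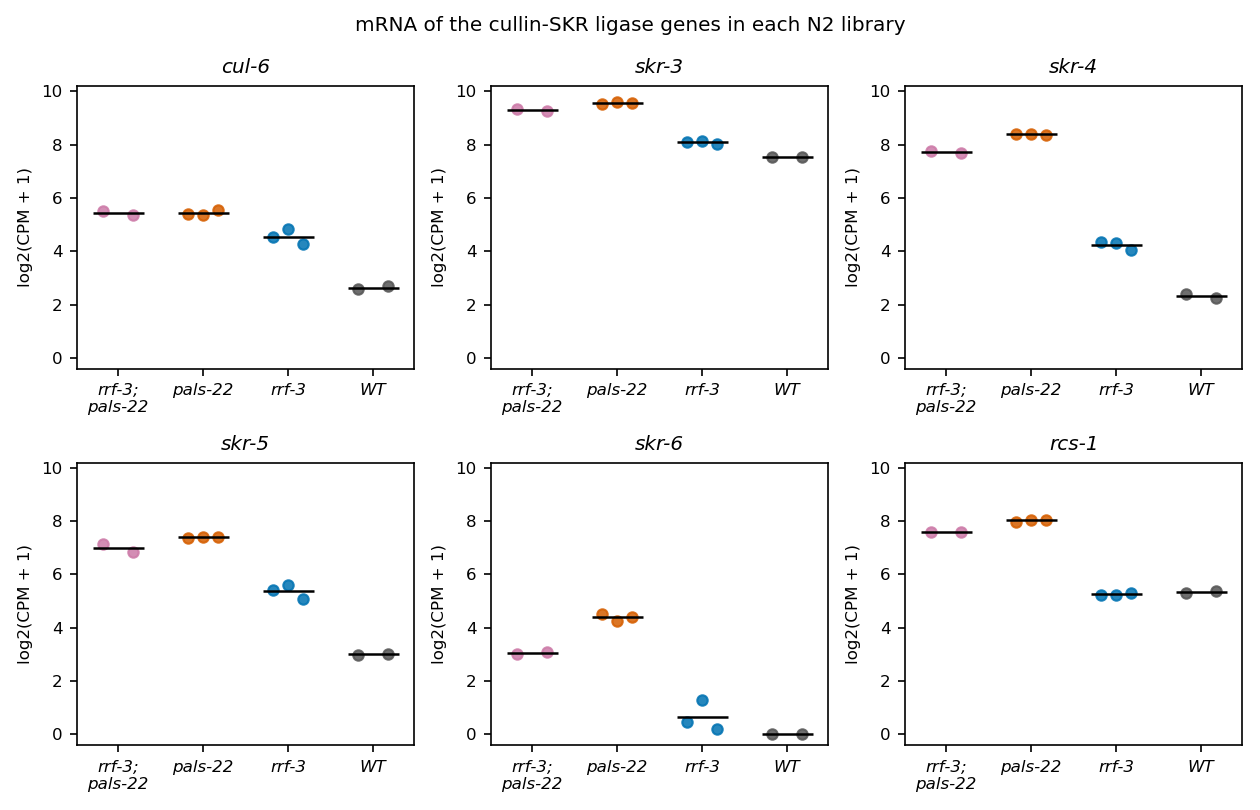
Each panel shows 1 ligase gene in N2 mRNA, with log2(CPM + 1) on the vertical axis, a point per library and a horizontal line at the mean of log2(CPM + 1) of the genotype. Double mutants and pals-22 mutants lie above rrf-3 mutants and wild type for every gene, skr-6 is at 0 in wild type, and rcs-1 is at 36.6–38.6 CPM in rrf-3 mutants against 39.0 and 40.7 CPM in wild type.

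Loss of rrf-3, an RNA-dependent RNA polymerase of the sRNA pathway, was accompanied by smaller rises, and rcs-1 was not among them. Of the 6 genes, 5 were called higher in rrf-3 mutants than in wild type, where 31.9% of all genes tested were called higher and 35.8% lower, or 47.8% higher and 16.4% lower with library totals alone. The median log2 fold change was 2.14, against −0.02 over all genes.

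In rrf-3 mutants cul-6 had 22.3, 27.2 and 18.5 CPM, and skr-5 had 42.1, 47.2 and 32.7 CPM. Both were above every wild-type library, as were 37.2% of all genes tested, with cul-6 4.38-fold higher (log2 2.13 ± 0.16, adjusted p = 2.16e-05) and skr-5 5.75-fold higher (2.52 ± 0.16, adjusted p = 1.07e-05). The level of skr-4 was 19.6, 18.9 and 15.3 CPM, 4.45-fold higher (2.15 ± 0.12, adjusted p = 7.39e-06). A smaller rise was seen for skr-3, at 276, 280 and 258 CPM, 1.48-fold higher (0.57 ± 0.07, adjusted p = 0.000199). For skr-6 the estimated counts were 20, 75 and 11 in rrf-3 mutants, with none counted in wild type, a rise of at least 8.54-fold (adjusted p = 0.0144), and the highest of these libraries was well above the other two. The RING gene rcs-1 had 36.6, 36.8 and 38.6 CPM in rrf-3 mutants, just below the wild-type libraries without overlap, as were 39.8% of all genes tested, and was not called (−0.09 ± 0.06, adjusted p = 0.204). This sign depended on the scaling: with library totals alone, where the median of all genes moved to 0.43, rcs-1 was called higher (0.37, adjusted p = 0.00558) and lay below that median.

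In rrf-3 pals-22 double mutants, skr-3, skr-4, skr-5 and rcs-1 were called lower than in pals-22 mutants, at 0.634-fold to 0.823-fold, and skr-6 and cul-6 were not called. With these 4 of the 6 genes called lower, 17% of all genes tested were called lower and 18.5% higher, or 9.24% lower and 20.7% higher with library totals alone. Their median log2 fold change was −0.42. In the 2 double mutant libraries skr-4 had 217 and 204 CPM, 0.634-fold of pals-22 mutants (−0.66 ± 0.11, adjusted p = 0.00384), and rcs-1 had 192 and 193 CPM, 0.741-fold (−0.43 ± 0.06, adjusted p = 0.00193). The level of skr-3 was 638 and 607 CPM, 0.823-fold (−0.28 ± 0.07, adjusted p = 0.0209). For skr-5 it was 139 and 114.9 CPM, 0.759-fold (−0.40 ± 0.14, adjusted p = 0.0753). These 4 genes did not overlap between the genotypes, where 29.5% of all genes tested lay lower without overlap.

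The calls of skr-3 and skr-5 rested on few libraries. Without double mutant library 2, 2 genes were called lower, with skr-3 at an adjusted p of 0.19 and skr-5 at 0.393, and skr-5 lost its call in 8 of the 10 fits that left out 1 library (adjusted p 0.101–0.393). With library totals alone both lost their calls (adjusted p 0.29 and 0.322). The linker skr-6 had 7.19 and 7.52 CPM in double mutants, well below every pals-22 library, and missed the threshold (−1.45 ± 0.58, adjusted p = 0.108). It was called by DESeq2 (adjusted p = 0.0698), without rrf-3 library 2 (0.00683) and without rrf-3 library 3 (0.0398). The scaffold cul-6 had 44.9 and 40.4 CPM, within the range of pals-22 mutants, and a ratio of 0.998 (−0.00 ± 0.14, adjusted p = 0.991).

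Loss of pals-22 raised all 6 genes in rrf-3 mutants too. In double mutants against rrf-3 mutants 5.25% of all genes were called higher and 2.21% lower, or 3.70% higher and 3.79% lower with library totals alone. The median log2 fold change of the 6 genes was 2.00. The ratio was 11.8 for skr-4 (log2 3.56 ± 0.11, adjusted p = 9.41e-08), 5.15 for rcs-1 (2.37 ± 0.06, adjusted p = 2.71e-08), 3.12 for skr-5 (1.64 ± 0.14, adjusted p = 0.000105), 2.29 for skr-3 (1.197 ± 0.07, adjusted p = 5.65e-06) and 1.88 for cul-6 (0.91 ± 0.14, adjusted p = 0.00573). For skr-6 it was 11.4 (3.52 ± 0.62, adjusted p = 0.0166). No member overlapped between these groups, where 18.4% of all genes tested lay higher without overlap.

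The difference of differences was tested directly, as the change with loss of rrf-3 in pals-22 mutants minus its change in otherwise wild-type animals. All 6 genes were called negative, where 15.7% of all genes tested were called negative and 21.5% positive, or 23.4% negative and 5.92% positive with library totals alone. The log2 difference was −2.92 ± 0.22 for skr-5 (adjusted p = 0.000155), −2.81 ± 0.16 for skr-4 (5.65e-05), −2.13 ± 0.22 for cul-6 (0.000651), −0.85 ± 0.10 for skr-3 (0.00126) and −0.34 ± 0.08 for rcs-1 (0.021). The fitted value of skr-6 (adjusted p = 0.0189) depends on the prior count, because wild type was at 0. On the log2 scale, then, the combined change fell short of the sum of the single-mutant changes for the genes raised by both mutations.

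In the otIs356 background the 6 genes were again higher in pals-22 mutants than in wild type, where 5.78% of the 16724 genes tested were called higher and 5.10% lower, or 7.13% higher and 1.58% lower with library totals alone. Their median log2 fold change was 2.55. No member overlapped between the groups, and 13.2% of all genes tested lay higher without overlap. The scaffold cul-6 had 35.3, 42.9 and 28.6 CPM in pals-22 mutants, against 5.76, 6.29, 5.11 and 10.5 CPM in wild type, 5.11-fold higher (2.35 ± 0.39, adjusted p = 0.00276). The RING gene rcs-1 had 184, 167 and 178 CPM in pals-22 mutants and 26.3, 24.1, 28.2 and 26.6 CPM in wild type, 6.72-fold higher (2.75 ± 0.17, adjusted p = 1.04e-06).

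Of the linkers, skr-4 had 171, 188 and 205 CPM in otIs356 pals-22 mutants, against 8.28, 5.79, 6.88 and 10.3 CPM in wild type, 24.0-fold higher (4.59 ± 0.47, adjusted p = 5.34e-05). The level of skr-3 was 630, 726 and 625.3 CPM in pals-22 mutants and 174, 167, 210.3 and 176 CPM in wild type, 3.63-fold higher (1.86 ± 0.25, adjusted p = 0.000527). The linker skr-5 had 101, 121 and 141.9 CPM in pals-22 mutants, against 29.5, 29.5, 25.2 and 40.1 CPM in wild type, 3.91-fold higher (1.97 ± 0.29, adjusted p = 0.00101). As in N2, skr-6 was at 0 in every wild-type library. It had 13.5, 9.78 and 17.5 CPM in pals-22 mutants, at least 48.7-fold higher (adjusted p = 0.00115). The N2 and otIs356 tables were normalized separately, and fold changes were not tested between them.

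**Figure D2:**
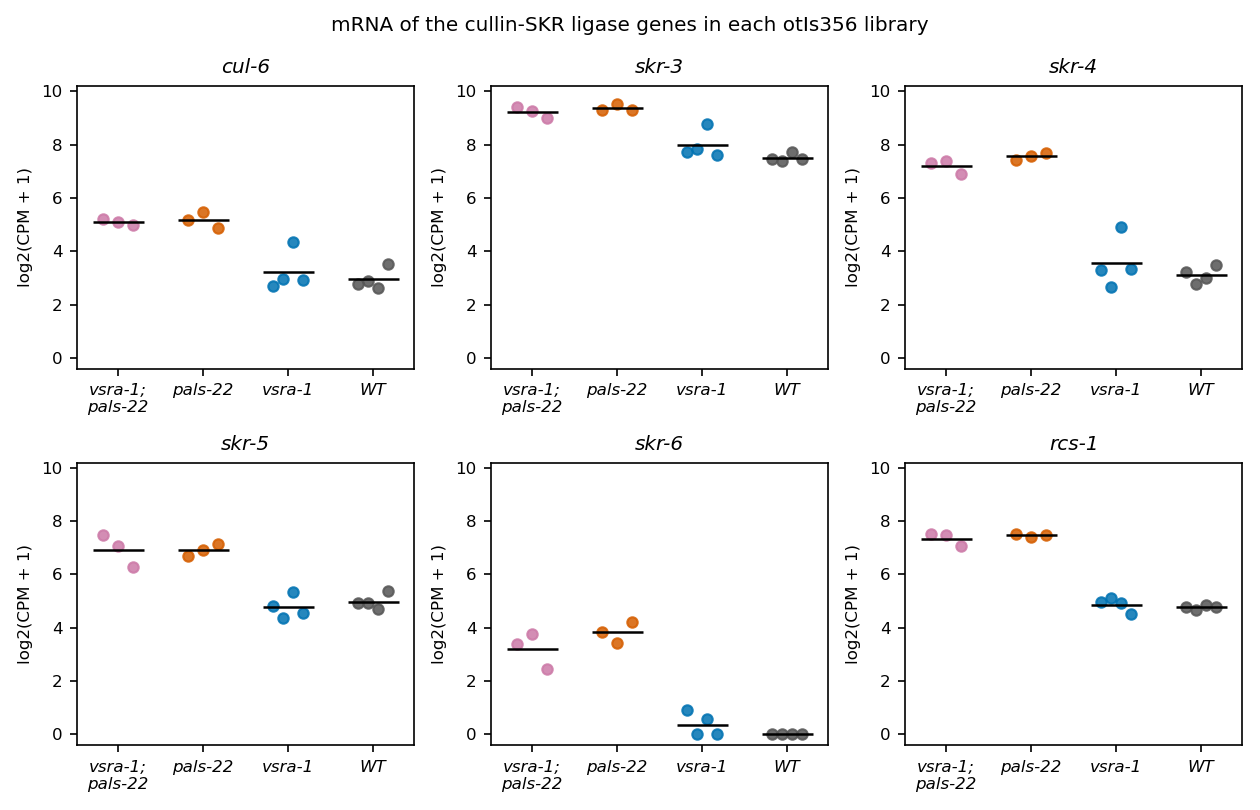
Each panel shows 1 ligase gene in otIs356 mRNA, with log2(CPM + 1) on the vertical axis, a point per library and a horizontal line at the mean of log2(CPM + 1) of the genotype. Double mutants and pals-22 mutants lie above vsra-1 mutants and wild type for every gene, and vsra-1 library 3 is the highest of its group for cul-6, skr-3, skr-4 and skr-5, at 19.4, 438, 29.0 and 39.2 CPM.

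Loss of vsra-1 in otherwise wild-type animals gave no call. With edgeR's quasi-likelihood test 0 of the 6 genes were called, and 0.00598% of all genes tested, which is 1 gene. At an unadjusted p under 0.05 there were 2 members, skr-3 and skr-6, and DESeq2 called 0. All 6 genes overlapped between the groups, where 6.85% of all genes tested did not. In vsra-1 mutants cul-6 had 5.42, 6.80, 19.4 and 6.61 CPM (log2 0.45 ± 0.37, adjusted p = 0.659), skr-3 had 209, 229, 438 and 195 CPM (0.56 ± 0.23, adjusted p = 0.353), and skr-4 had 8.86, 5.36, 29.0 and 9.06 CPM (0.73 ± 0.41, adjusted p = 0.495). In each case library 3 was far above the other three. Without it the value became −0.15 for cul-6 and −0.0080 for skr-4, with no call. The linker skr-5 had 27.0, 19.4, 39.2 and 22.5 CPM (−0.20 ± 0.27, adjusted p = 0.793), and rcs-1 had 29.9, 33.9, 29.1 and 21.7 CPM (0.12 ± 0.15, adjusted p = 0.777). Reads of skr-6 were counted in 2 of the 4 vsra-1 libraries, as 10 and 5 counts, and in none of the 4 wild-type libraries (adjusted p = 0.25). The median log2 fold change of the 6 genes was 0.50, or 0.35 with skr-6 at its bound.

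Loss of vsra-1 in pals-22 mutants gave no call either, with 0 of 6 genes called by edgeR, 0.00598% of all genes tested called, 0 members at an unadjusted p under 0.05 and 0 called by DESeq2. In the 3 vsra-1 pals-22 double mutant libraries cul-6 had 35.6, 32.9 and 30.6 CPM and rcs-1 had 181, 176 and 132 CPM. The linker skr-3 had 674, 609 and 507 CPM and skr-5 had 176, 131 and 77.5 CPM. For skr-6 the values were 9.36, 12.7 and 4.46 CPM. All 5 overlapped the pals-22 libraries, whereas skr-4, at 159, 166 and 119 CPM, lay below them without overlap, as did 5.31% of all genes tested. The log2 difference was −0.35 ± 0.46 for skr-4, −0.62 ± 0.83 for skr-6, −0.15 ± 0.27 for skr-3, −0.12 ± 0.17 for rcs-1, −0.11 ± 0.41 for cul-6 and 0.07 ± 0.31 for skr-5, each with an adjusted p of 1. Standard errors of this size leave room for changes like those seen in N2 with loss of rrf-3.

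Against vsra-1 mutants, the double mutants had all 6 genes higher, where 6.66% of all genes tested were called higher and 4.26% lower, or 13.5% higher and 1.97% lower with library totals alone. The median log2 fold change was 2.38, and no member overlapped, where 10.4% of all genes tested lay higher without overlap. The ratio was 28.1 for skr-6 (4.81 ± 0.94, adjusted p = 0.0173), 11.4 for skr-4 (3.505 ± 0.46, adjusted p = 0.000486), 5.70 for rcs-1 (2.51 ± 0.17, adjusted p = 2.48e-06), 4.74 for skr-5 (2.24 ± 0.29, adjusted p = 0.000489), 3.47 for cul-6 (1.80 ± 0.39, adjusted p = 0.0186) and 2.23 for skr-3 (1.16 ± 0.25, adjusted p = 0.0179). The call of skr-3 was lost when only these 2 groups were fitted (adjusted p = 0.116). The difference of differences gave 0 calls among the 6 genes with edgeR, where 0.00598% of all genes tested were called, 1 at an unadjusted p under 0.05 (skr-6) and 0 with DESeq2. Its log2 values were −1.08 ± 0.62 for skr-4, −0.70 ± 0.36 for skr-3, −0.56 ± 0.55 for cul-6, −0.24 ± 0.23 for rcs-1 and 0.28 ± 0.41 for skr-5. With vsra-1 library 3 and wild-type library 4 both left out, a choice made after seeing the data, the number of members called stayed at 6, 0, 0, 6 and 0 in these 5 otIs356 comparisons.

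**Figure D3:**
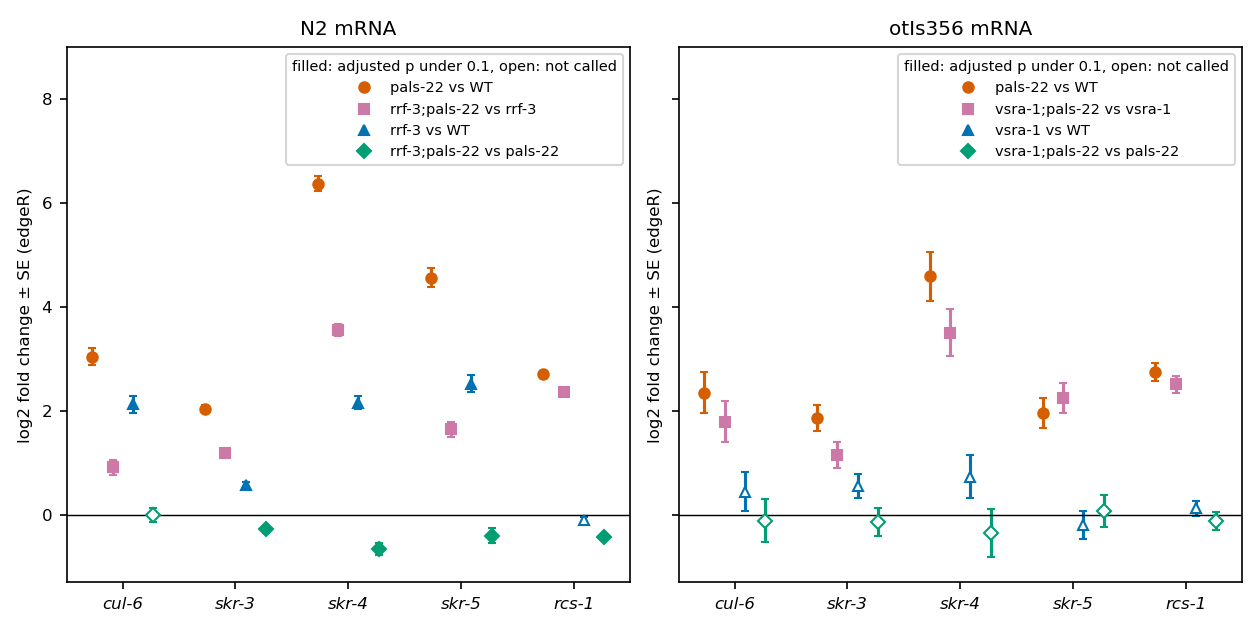
Log2 fold change in mRNA with its standard error for 5 ligase genes in the 4 comparisons of each background, filled where the adjusted p was under 0.1 and open where it was not. The pals-22 comparisons lie at 0.91 or above throughout, the rrf-3 comparison in pals-22 mutants lies between −0.66 and −0.00, and skr-6 is left out because its fitted ratios against wild type depend on the prior count.

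The order of the genotypes differed between genes. In N2, cul-6 stood at 42.7 ± 2.92 CPM in pals-22 mutants and 42.6 ± 3.20 in double mutants, which did not differ beyond their spread, then at 22.7 ± 4.34 in rrf-3 mutants and 5.17 ± 0.321 in wild type (mean ± SD). The linker skr-5 followed pals-22 mutants (167 ± 4.08), double mutants (127 ± 17.2), rrf-3 mutants (40.7 ± 7.35) and wild type (7.06 ± 0.170), with every step called but the first only in some fits. For rcs-1 there were 3 levels, 260 ± 6.29 CPM in pals-22 mutants, 192 ± 1.05 in double mutants, and 37.3 ± 1.06 in rrf-3 mutants beside 39.8 ± 1.17 in wild type. In otIs356 each gene had only 2 levels that tests told apart, a high level in pals-22 and double mutants and a low one in vsra-1 mutants and wild type. Across the 10 N2 libraries the lowest correlation between 2 members was r = 0.753, between cul-6 and rcs-1, and the highest r = 0.999, between skr-3 and skr-4, whose reads are partly shared. Over the 14 otIs356 libraries r ran from 0.902 to 0.979. These are descriptions over libraries that share their genotypes.

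Because skr-3 and skr-4 share sequence, their sum was also taken. The sum still depends on how common reads were assigned, since the authors scaled counts per gene. It was 833 ± 32.0 CPM in N2 double mutants, 1089 ± 18.7 in pals-22 mutants, 289 ± 13.8 in rrf-3 mutants and 187 ± 0.204 in wild type. In otIs356 the sum was 745 ± 107 CPM in double mutants, 849 ± 58.6 in pals-22 mutants, 281 ± 125 in vsra-1 mutants and 190 ± 19.2 in wild type.

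The F-box adaptors known to join this ligase moved with it. In N2, fbxa-158 averaged 175 ± 7.56 CPM in pals-22 mutants and 10.7 ± 0.101 CPM in wild type, 16.3-fold higher (adjusted p = 1.63e-08), and fbxa-75 averaged 375 ± 26.5 CPM and 1.01 ± 0.124 CPM in those groups, 369-fold higher (adjusted p = 3.92e-08). The study showed fbxa-158 as an example from these samples. In otIs356 the ratios were 11.1 for fbxa-158 (adjusted p = 0.000852) and 62.03 for fbxa-75 (adjusted p = 0.00583). Both were also higher in rrf-3 mutants than in wild type (1.59-fold and 9.77-fold, adjusted p = 0.000183 and 9.54e-06), and lower in rrf-3 pals-22 double mutants than in pals-22 mutants (0.685-fold and 0.514-fold, adjusted p = 0.00239 and 0.0036). In vsra-1 pals-22 double mutants against vsra-1 mutants, fbxa-158 was 5.55-fold higher and called. There fbxa-75 was not called (log2 2.80, adjusted p = 0.108), with 87.7–128 CPM in double mutants and 1.46–47.7 CPM in vsra-1 mutants, where library 3 alone gave the highest value. Without that library it was called (log2 4.57, adjusted p = 0.0047).

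Of the constitutive counterparts of the ligase, the RING gene rbx-1 was called higher with loss of pals-22, skr-1 was called lower in N2 and cul-1 was not called. The cullin cul-1, scaffold of the general SCF complex, had 30.2 ± 1.23 CPM in N2 pals-22 mutants and 28.1 ± 1.22 CPM in wild type. It was called in no mRNA comparison with all libraries. Without rrf-3 library 2 it was called higher in N2 pals-22 mutants (0.17, adjusted p = 0.0583), in rrf-3 mutants (0.26, adjusted p = 0.0109) and in double mutants against pals-22 mutants (0.15, adjusted p = 0.0962), and without vsra-1 library 4 in otIs356 double mutants against vsra-1 mutants (0.56, adjusted p = 0.0536). Its usual linker skr-1 was lower in N2 pals-22 mutants (−0.35, adjusted p = 0.0112) and in rrf-3 mutants (−0.58, adjusted p = 0.000394), and was not called in otIs356 pals-22 mutants (0.20, adjusted p = 0.378). The RING protein gene rbx-1, which serves most cullins, was higher with loss of pals-22 in N2 wild type (log2 0.82, adjusted p = 4.97e-05), in rrf-3 mutants (0.61, adjusted p = 0.000565), in otIs356 wild type (0.83, adjusted p = 0.0196) and in vsra-1 mutants (0.69, adjusted p = 0.0454). The call in vsra-1 mutants was lost when any of 4 single libraries was left out (vsra-1 1 or 2, double mutant 1 or 3; adjusted p 0.116–0.154). It was also higher in rrf-3 mutants than in wild type (0.31, adjusted p = 0.00433).

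The remaining lists were counted whole, against the same shares of all genes. Of the 5 other cullins, 0 were higher and 1 was lower in N2 pals-22 mutants than in wild type, and 0 were called in otIs356. Of 16 other SKR genes tested, 4 were higher and 3 lower in N2, among them skr-2 (2.57-fold, adjusted p = 0.00952) and skr-21 (2.37-fold, adjusted p = 0.000138), and 0 were called in otIs356. Of 13 RING and neddylation genes, which activate cullins by attaching NED-8 or release them again, 9 were higher and 0 lower in N2 and 6 higher and 0 lower in otIs356. The highest ratios of that list were those of the NED-8 conjugating enzyme ubc-12, 2.86-fold higher in N2 pals-22 mutants (adjusted p = 1.03e-05) and 2.20-fold higher in otIs356 ones (0.00104), and of the cullin exchange factor cand-1 in N2 (2.03, adjusted p = 8e-04). Of 4 ubiquitin core genes, 2 were higher and 2 lower in N2, and 1 was higher in otIs356.

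Of the other SKR genes, 9 of 16 were higher in rrf-3 mutants than in wild type and 4 lower, with a median log2 fold change of 0.84 beside 2.14 for the ligase genes. The ratios over 2 were those of skr-10 (3.49), skr-8 (2.93), skr-9 (2.85), skr-13 (2.68), skr-14 (2.52) and skr-15 (2.19). In rrf-3 pals-22 double mutants against pals-22 mutants 5 of 16 were higher and 0 lower, with skr-13 at 3.26, skr-14 at 2.58 and skr-10 at 2.37 and a median log2 fold change of 0.33 beside −0.42 for the ligase genes. The difference between the lists was not tested. In rrf-3 mutants 3 of 13 RING and neddylation genes were higher and 4 lower, 0 of 5 other cullins were higher and 3 lower, and the ubiquitin-activating enzyme gene uba-1 was 2.10-fold higher. All 8 marker sums moved without overlap in the same libraries, higher in rrf-3 mutants for germline (31.3–36.3 CPM against 6.04–8.79 in wild type) and pharynx genes (209–232 against 74.0–84.6) and lower for the other 6, such as hypodermis (101–122 against 220–385), body wall muscle (812–1276 against 1683–2509) and intestine genes (678–999 against 1199–1255). In double mutants against pals-22 mutants 6 sums did not overlap, among them hypodermis genes, at 128–134 CPM in double mutants and 391–833 in pals-22 mutants. Single genes often did the same. In rrf-3 mutants 37.2% of all genes tested lay higher and 39.8% lower without overlap. In double mutants against pals-22 mutants 29.5% lay lower. These counts of sums are therefore no result about the marker lists, and the part of these shifts was not tested. In vsra-1 mutants against wild type, and in vsra-1 pals-22 double mutants against pals-22 mutants, 0 genes of these lists were called with edgeR. Against vsra-1 mutants, 7 of 13 RING and neddylation genes were higher in double mutants and 0 lower, including cand-1 (2.36-fold), and uba-1 was 2.41-fold higher.

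**Figure D4:**
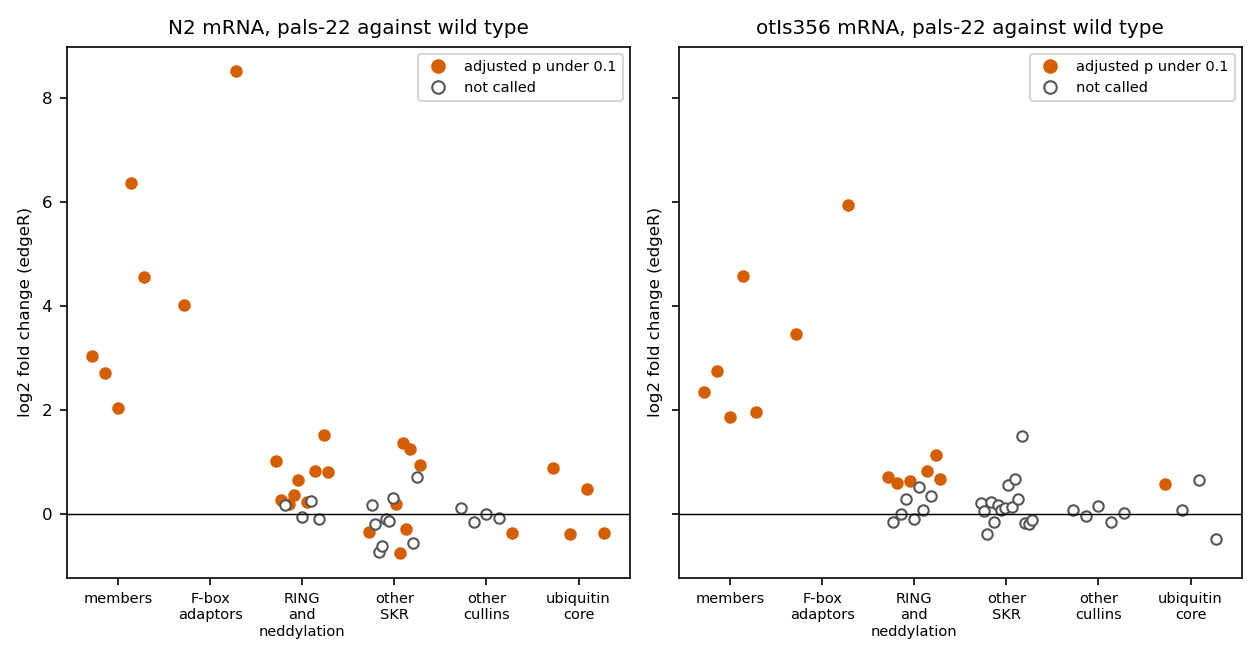
Log2 fold change in mRNA for each tested gene of the ligase and of the other lists in pals-22 mutants against wild type, in N2 and in otIs356, a point per gene and filled where the adjusted p was under 0.1. The ligase members (without skr-6) and the F-box adaptors lie at 1.86 or above in both backgrounds, while cul-1 lies at 0.11 and 0.08.

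The sRNA tables appear to count reads antisense to genes, which the sources used here do not state for these files. For the miRNA gene cel-mir-1 on the minus strand they held 0.0824 RPM (reads relative to the library total) on average in N2, whereas T09B4.14, annotated on the opposite strand at that place, held 1.724e+05 RPM, and 257 of 261 miRNA genes in N2 and 254 of 261 in otIs356 averaged at most 5 RPM. The values below are read on that basis as counts of sRNAs complementary to the transcripts, the orientation of the secondary sRNAs made by RNA-dependent RNA polymerases. Where lsy-27 overlaps skr-5, reads antisense to skr-5 have the sense of lsy-27, and the tables do not tell the source. Of the 22-base words of skr-3 and skr-4, 20% and 21.97% occur more than once in the genome, so that the origin of such sRNAs is uncertain, against none of cul-6, skr-5 and skr-6. The counts were low. Of the 6 genes, 0 exceeded 5 RPM in any N2 library, where 39.1% of the 7243 genes over that minimum were called in pals-22 mutants against wild type, and only cul-6 exceeded it in otIs356. Members below the minimum are described by ratios of pooled RPM with 95% exact conditional intervals, which cover counting error only and take no account of the spread between libraries.

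In N2 the antisense sRNAs of skr-5 stood out. They were counted 47, 25 and 11 times in pals-22 mutants, against 1, 0 and 0 times in wild type, a ratio of 67.0 (interval 11.7–2678). Those of rcs-1 were counted 13, 4 and 5 times in pals-22 mutants and 0, 0 and 1 times in wild type, a ratio of 17.8 (2.87–733). In RPM, both were higher in each pals-22 library than in each wild-type library, as were 26.7% of all genes with a read. The linker skr-3 went the other way, with 85, 33 and 24 counts in pals-22 mutants and 83, 27 and 58 in wild type, a ratio of 0.682 (0.542–0.858), and the groups overlapped in RPM. For cul-6 there were 23, 6 and 2 counts in pals-22 mutants and 2, 3 and 5 in wild type (ratio 2.50, interval 1.196–5.72), and for skr-4 35, 12 and 1 against 9, 9 and 6 (1.61, 0.970–2.76), and both overlapped in RPM. For skr-6, 2 reads were counted in 1 pals-22 library and 0 in the others and in wild type. The ratios of skr-5 and rcs-1 rest on a single wild-type read each. Without wild-type library 3 that of skr-5 was 42.2, without wild-type library 1 that of rcs-1 was 10.6, and without the library that held the read no ratio could be formed.

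In otIs356 sRNAs of skr-5 were counted 18, 54 and 17 times in pals-22 mutants and 0, 1, 9 and 0 times in wild type, a ratio of 13.6 (7.04–29.2). In vsra-1 pals-22 double mutants there were 38, 6 and 14 counts, against 0, 0, 1 and 0 in vsra-1 mutants, a ratio of 66.9 (11.5–2686), and 0.477 of pals-22 mutants (0.337–0.672). The antisense reads of cul-6 were 9, 38 and 7 in pals-22 mutants and 0, 0, 2 and 1 in wild type (27.4, 8.89–137). Those of skr-3 were 5, 29 and 5 against 3, 4, 5 and 1 (4.57, 2.39–9.33), and those of skr-4 3, 10 and 2 against 2, 1, 1 and 0 (5.71, 1.82–23.6). For rcs-1 they were 7, 22 and 2 against 8, 9, 2 and 2 (2.25, 1.25–4.12), overlapping in RPM. For skr-6, 3, 3 and 2 reads were counted in pals-22 mutants and none in the wild-type libraries. Antisense reads of cul-6, skr-3 and skr-5 were higher in RPM in every pals-22 library than in every wild-type library in this background, as were those of 9.66% of all genes with a read. For skr-4 and skr-6 the pals-22 libraries also lay above the wild-type ones, but their lowest values, 0.248 and 0.150 RPM, were under the 0.377 RPM that a count of 0 allows in wild-type library 4, so that no difference was detectable against it. Single libraries moved several of these ratios by over 1.5 times. Wild-type library 3 held 9 of the 10 wild-type reads of skr-5, and without it the ratio of skr-5 was 87.2 and that of cul-6 was 52.9. Without pals-22 library 2, the highest of its group for each gene but skr-6, the ratio of cul-6 was 16.3, that of skr-3 was 2.36 and that of rcs-1 was 1.31, and without wild-type library 1 that of skr-4 was 8.85. Without double mutant library 1, skr-5 in double mutants was at 31.9 times vsra-1 mutants and at 0.227 of pals-22 mutants, and without vsra-1 library 3, which held the only read, the first of these could not be formed.

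Only cul-6 could be tested in otIs356, and only because double mutant library 1, with 112 counts or 7.47 RPM, passed the minimum. That library stands apart, with r of 0.9044–0.9099 to its group where the other two had 0.9837 between them, and the other two held 5 and 12 counts of cul-6. Antisense reads of cul-6 were called higher in pals-22 mutants than in wild type (adjusted p = 0.0265), where 11.7% of the 8042 genes tested were called higher. No member passed the minimum when only these 2 groups were fitted, so that the call rests on a gene that entered through another genotype. The counts in vsra-1 mutants were 7, 4, 6 and 6. Double mutants against vsra-1 or pals-22 mutants, and the difference of differences, are given as counts only. In these, cul-6 entered the test through the double mutant library in which it was high. Of the genes tested, 12.1% were called higher against vsra-1 mutants, 10% were called against pals-22 mutants and 8.9% in the difference of differences. With edgeR cul-6 was not called in vsra-1 mutants against wild type (adjusted p = 0.349, 4.96% of all genes called). There its unadjusted p was above 0.05 and DESeq2 made 0 calls. Without double mutant library 1, 0 members passed the minimum.

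**Figure D5:**
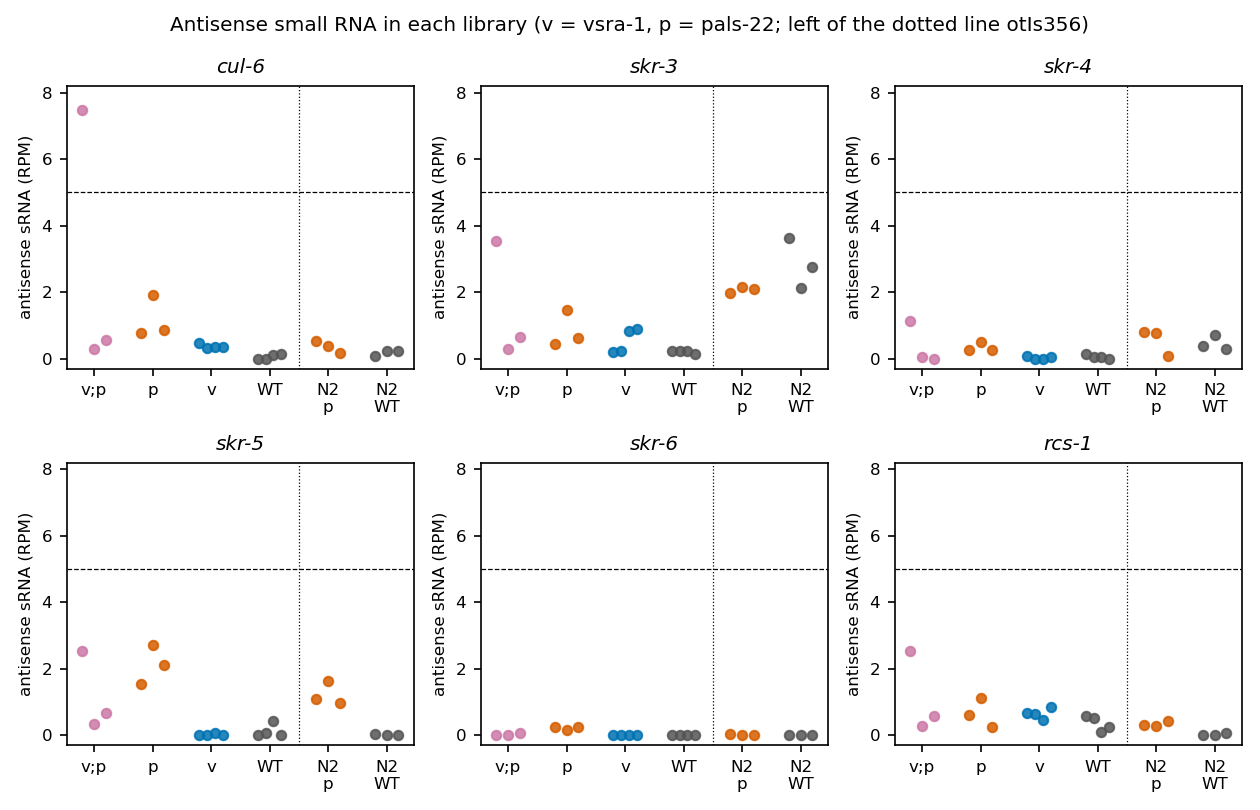
RPM of antisense sRNAs for each ligase gene in each library, a point per library, with otIs356 genotypes left of the dotted line and N2 genotypes right of it. The dashed line is the minimum of 5 RPM, which only 1 point, cul-6 in double mutant library 1 at 7.47 RPM, exceeds, and skr-5 is at 0.958–1.63 RPM in N2 pals-22 mutants against at most 0.0436 RPM in wild type.

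The genes whose mRNA pattern was most like that of each member were found over the 16619 genes tested in both mRNA tables, as the mean over the tables of Pearson's r across the 10 and the 14 libraries. They are descriptions, since the libraries share genotypes. For cul-6 they were Y75B8A.39 and mfsd-12 (both 0.985) and W04G5.8 (0.981). For skr-3 they were pals-9, C53A5.11 and math-5 (all 0.988), and for skr-4 F07E5.9 (0.997), pals-1 and droe-8 (both 0.996). For skr-5 they were T05A8.2 (0.983), cdc-48.2 (0.982) and W04G5.8 (0.976), and for skr-6 F15H10.9 (0.990), Y32B12C.1 (0.987) and Y43F8B.12 (0.985). For rcs-1 they were fbxa-174 (0.996), T27E7.9 (0.994) and chil-5 (0.993). Of these, pals-1 and pals-9 belong to the gene family of pals-22, and W04G5.8 is common to the lists of cul-6 and skr-5.

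The 250 bases before the annotated start were searched on both strands for 3 words, because the members moved together. The GATA-type word TGATAA occurred in 2 of the 6 (skr-4 and skr-5), against 26.8% of 19984 such windows. The bZIP core word TGACG occurred in 2 of the 6 (skr-3 and skr-6), against 23.4%, and the heat shock element core GAANNTTC in 0 of the 6, against 15.7%. These shares are near those of all genes, and a match is no evidence of binding. The windows of skr-4 (chrV:19923974-19924223, plus strand, WBcel235) and rcs-1 (chrX:8828541-8828790, minus strand) are shown as those of the linker with the largest rise from a nonzero level and of the member that loss of rrf-3 did not raise. Capitals mark the only TGATAA match, which reads TTATCA because it lies on the reverse strand, and the first bases of the skr-4 window overlap an annotated pseudogene.
skr-4: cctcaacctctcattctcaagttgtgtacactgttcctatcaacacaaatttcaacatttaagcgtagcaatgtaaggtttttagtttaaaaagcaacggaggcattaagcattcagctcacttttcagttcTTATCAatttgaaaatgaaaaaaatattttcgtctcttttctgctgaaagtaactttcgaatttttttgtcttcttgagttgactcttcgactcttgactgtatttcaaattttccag
rcs-1: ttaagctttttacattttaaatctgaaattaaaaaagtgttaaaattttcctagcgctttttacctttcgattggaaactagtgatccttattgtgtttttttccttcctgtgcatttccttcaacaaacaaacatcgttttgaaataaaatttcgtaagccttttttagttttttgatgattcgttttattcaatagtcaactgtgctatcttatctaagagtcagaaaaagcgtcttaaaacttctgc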

How the data were processed

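Members and lists were chosen with earlier results of these data known. The authors deposited 4 tables over 44 libraries of L1 larvae. For mRNA (poly(A), paired-end), the deposited values were estimated counts from kallisto, scaled per gene by the authors in a way not further stated. Of all values, zeros included, 91.9% (N2) and 84.8% (otIs356) were not whole, so they were rounded here. For sRNA (cloned without regard to the number of phosphates at the start), the deposited values were counts of reads per gene after adapter trimming with cutadapt, size selection, alignment to ce11 with ShortStack and featureCounts. No column held values of another sample (0 unused). Groups and replicate numbers came from the sample titles.

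Each table was fitted whole with edgeR's quasi-likelihood test (edgeR 4.0.16, R 4.3.3), TMM scaling and 1 term per genotype, and p-values (two-sided) were adjusted by Benjamini-Hochberg over the table, called under 0.1 as in the study. For mRNA, genes were kept by filterByExpr (minimum count 10, total 15), and for sRNA where over 5 RPM in at least 1 library. A count of 0 was taken to allow 3 counts, at most 0.0822 CPM in N2 mRNA, 0.548 in otIs356 mRNA, and 0.261 and 0.377 RPM in sRNA, before TMM scaling. Positions and sequences came from the RefSeq and Ensembl WBcel235 files, aligned with MAFFT 7.526. Text names all 6 members, 5 fixed genes (rbx-1, cul-1, skr-1, fbxa-75, fbxa-158), list genes called with over 2-fold change, and the 3 most alike genes of each member. Alternatives were RLE scaling, library totals, DESeq2 1.42.0, other filters, fits of the compared groups alone, replicate blocks and leaving out each library. The fits were tested on simulated data.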

Additional observations from a re-analysis of the deposited data

Results flagged for a closer look

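In otIs356 vsra-1 mutants (n = 4), library 3 lay far above the others for several ligase genes. It had 19.4 CPM of cul-6 (next highest 6.80 CPM), 438 CPM of skr-3 (next 229), 29.0 CPM of skr-4 (next 9.06), 48.1 CPM of fbxa-158 (next 14.6), 47.7 CPM of fbxa-75 (next 8.64) and 615 CPM of skr-1 (next 463), and the gap took 0.901, 0.860, 0.844, 0.840, 0.845 and 0.860 of the group's range. Library 4 of the same group stood apart for cul-1 (33.6 CPM, next 21.9), and otIs356 wild-type library 4 for fbxa-75 (7.90 CPM, next 1.70). In otIs356 wild-type sRNA, library 3 was high for skr-5 (0.417 RPM, 9 counts, next 0.0574 RPM) and library 4 low for skr-3 (0.126 RPM, 1 count, next 0.220 RPM). Chance alone flags a small part of all such groups.

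In N2 mRNA the change with loss of rrf-3 differed between pals-22 mutants and otherwise wild-type animals, by edgeR's test of the difference. The log2 difference was −2.13 for cul-6, −0.85 for skr-3, −2.81 for skr-4, −2.92 for skr-5 and −0.34 for rcs-1, and −9.42 for skr-6, whose fitted value depends on the prior count. It was also called for fbxa-75 (−4.25, adjusted p = 6.78e-05), fbxa-158 (−1.22, adjusted p = 0.000475) and, with the other sign, skr-1 (0.53, adjusted p = 0.014). The value of skr-1 rests on falls whose size depends on the scaling, as given above.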

How the results depend on the processing

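Counts of mRNA members called were the same under every alternative for pals-22 mutants against wild type (6 in each background). So were those of N2 double mutants against rrf-3 mutants (6) and the N2 difference of differences (6). In otIs356 the count stayed at 0 for vsra-1 mutants against wild type, double mutants against pals-22 mutants and the difference of differences. The 6 calls in vsra-1 pals-22 double mutants against vsra-1 mutants became 5 with only these groups fitted. The 5 calls in rrf-3 mutants against wild type became 6 with library totals alone. In rrf-3 pals-22 double mutants against pals-22 mutants the 4 calls became 2 with library totals alone, 5 with DESeq2 and 2 to 5 when 1 library was left out (2 without double mutant library 2). Scaling by totals alone moved the median of all genes by over 0.1, to 0.16 in N2 pals-22 mutants, 0.43 in rrf-3 mutants, −0.17 in double mutants against rrf-3 mutants and −0.33 in the difference of differences, and in otIs356 to 0.24 in pals-22 mutants and 0.33 in double mutants against vsra-1 mutants. In sRNA it moved to 0.35 in N2, where 69.4% of genes were then called higher and 8.27% lower against 18.3% and 20.8% in the main fit, and in otIs356 to 0.18 in vsra-1 mutants (10.9% higher and 1.04% lower, against 2.66% and 2.30%) and 0.11 in double mutants against pals-22 mutants (6.79% and 1.80%, against 6.69% and 3.34%).

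Directions turned with totals alone for rcs-1 in rrf-3 mutants (0.37), for cul-6 (0.11) and skr-1 (0.074) in N2 double mutants against pals-22 mutants, for cul-1 in N2 double mutants against rrf-3 mutants (−0.063) and for skr-1 in otIs356 double mutants against vsra-1 mutants (0.14). The near-zero value of cul-6 in N2 double mutants against pals-22 mutants also turned without a filter (0.026), with over 1 CPM in 2 libraries (0.011) and with the compared groups alone (0.0018). With otIs356 wild-type library 4 and vsra-1 library 3 left out, chosen after seeing the data, fbxa-158 turned to −0.12 in vsra-1 mutants. The cause was not tested.

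Leaving out 1 library turned only values that were not called. The ranges were −0.13 to 0.0081 for rcs-1 in rrf-3 mutants, −0.081 to 0.099 for cul-6 in N2 double mutants against pals-22 mutants and −0.11 to 0.041 for cul-1 in the N2 difference of differences. In otIs356 vsra-1 mutants they were −0.15 to 0.73 for cul-6, −0.0080 to 0.99 for skr-4 and −0.11 to 0.98 for fbxa-158. In otIs356 double mutants against pals-22 mutants they were −0.25 to 0.042 for cul-6, −0.22 to 0.33 for skr-5, −0.20 to 0.011 for rcs-1 and −0.076 to 0.15 for cul-1. In the otIs356 difference of differences they were −0.84 to 0.039 for cul-6 and −0.014 to 0.54 for skr-5.

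In sRNA the number of members called depended on the filter, since more members entered. It was 3 without a filter and 2 with filterByExpr in N2, and 3 and 2 in otIs356 pals-22 mutants against wild type. The shares of all genes called under these filters are not given here, so these counts are no result about the members. In the main fits 39.1% of genes were called in N2, and 11.7% were called higher and 14.6% lower in otIs356. In otIs356 pals-22 mutants against wild type, where 1 member was called, the number was 0 with the compared groups alone. It ranged from 0 to 1 there when 1 library was left out.

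Deviations of libraries with the same number in their titles correlated at −0.26 to 0.16 in N2 mRNA and −0.22 to 0.46 in otIs356 mRNA. In N2 mRNA the numbers in the library names differed from the titles for wild type and double mutants. By the library names the N2 mRNA range was −0.26 to 0.14. In sRNA the range was −0.04 to 0.16 in N2 and −0.31 to 0.15 in otIs356, so that replicate numbers gave no steady pairing. The value of 0.46 was between otIs356 wild-type and vsra-1 mRNA libraries 4. Deviations within such small groups are tied to each other, and whether libraries shared a batch was not tested. With the replicate block, members called were unchanged in number in mRNA (all genes called in N2 pals-22 mutants 8993 against 9702). The block turned cul-1 in the N2 difference of differences to 0.0597. Crossing the numbers of the N2 double mutants, added after seeing the data, left 6, 5, 4, 6 and 6 members called and also gave cul-1 0.0583.

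Depth limits what can be said of sRNAs, where 1 to 54 counts a library carry most values. It also limits skr-6 in otIs356 mRNA, where its count of 0 allows up to 0.279 CPM in wild-type library 3.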
